A study of Mus musculus with 7 samples.

Results

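Gene expression in Nanog knockout (KO) fibroblasts that had carried an OSKM lentivirus (Oct4, Sox2, Klf4 and Myc, which reprogram cells) for 8 days was set against that of wild-type (WT) mouse embryonic fibroblasts (MEFs) in which the factors had not been switched on. These are 2 of the 7 samples of the series, taken by their labels, with 1 array each. The Nanog KO cells were MEFs generated from Nanog-/- ESCs of an earlier study, and their label gives no status for Utx, the histone demethylase that the series concerns. Kdm6a, the gene of Utx, read 8.22 in the WT MEFs and 8.34 in the Nanog KO cells. The WT MEFs were V19-OSKM cells with the Utx +/Y genotype and no doxycycline (DOX), the drug that switches on their factors. The other 5 arrays were WT MEFs with DOX, MEFs labelled Utx KO without and with DOX, and V6.5 ESCs that were Utx +/Y or Utx -/Y. For all samples the labels give 1 growth medium, that of ESCs (N2B27 with 2i and LIF). Thus exposure to OSKM, the way it was delivered, the Nanog genotype, the cell line and the array all differ between the groups compared. Their parts in any difference cannot be told apart. No condition was repeated, so no difference below has a replicate check, an error or a p-value.

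OSKM expression moves fibroblasts towards pluripotency in stages. Cells first lose the contractile and matrix genes of mesenchyme and gain junction genes of epithelium, and genes of the pluripotency network follow later. Nanog, a homeobox factor of that network, belongs to the last stage and is silent in fibroblasts. The comparison asks how far from a fibroblast profile the cells without Nanog stood after the factors had acted.

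Values are log2 intensities, and differences are Nanog KO minus WT MEF on the log2 scale after the array medians were aligned. The deposited medians were 7.68 to 7.84 on 6 arrays and 8.55 on the Nanog KO array, a shift of 0.74 from the WT MEF array, and any aligned difference between -0.74 and 0 has the other sign in the deposited values. A gene counts as higher or lower where it differed by 2-fold or more and its higher value exceeded a floor of 7.25, the 40th percentile of all aligned values. Of 13562 genes, 9666 exceeded the floor in either sample, and 910 of these were higher in the Nanog KO cells (9.41%) and 1064 lower (11.0%), together 20.4%. These shares are the background for each count of list members below. Without the alignment 3773 were higher and 399 lower. Under the same rule the Utx KO and WT ESC arrays differed in 4.08% of 8804 genes. Over all array rows the Nanog KO array correlated with the WT MEF array at r = 0.898 and with the WT ESC array at 0.783, a description of arrays that share the gene-specific signal of their probes. The library labelled Utx KO with DOX correlated with the WT MEF array at 0.972 and that labelled Utx KO without DOX at 0.921, against the order their labels would give, so both are called by their labels here.

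**Figure D1:**
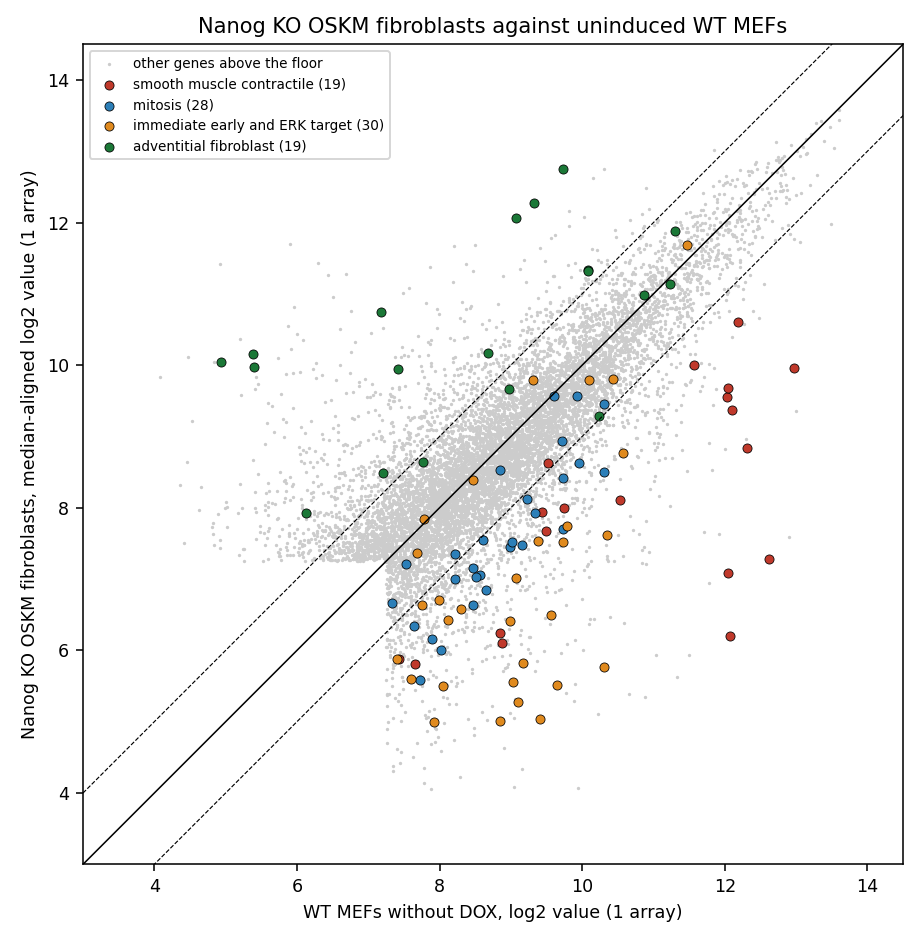
Median-aligned log2 value of each gene above the floor in WT MEFs without DOX (x axis) and in the Nanog KO OSKM fibroblasts (y axis), 1 array each, with the line of equal values and dashed lines at 2-fold. Smooth muscle contractile genes (18 of 19) and mitosis genes (20 of 28) lay below the lower dashed line, as did 23 of 30 immediate early and ERK target genes, and 13 of 19 adventitial fibroblast genes lay above the upper one.

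Fibroblast markers stayed at high levels in the Nanog KO cells. All 10 fibroblast markers exceeded the floor in both samples, with a median level of 11.85 in WT MEFs and 12.04 in Nanog KO cells, and their median difference was -0.21, less than the shift made by the alignment. Of these, 2 were higher, 3 lower and 5 within 2-fold. Col1a1, the main chain of type I collagen, read 12.86 and 12.36. Vim, the intermediate filament of mesenchyme, read 13.14 and 12.97, and the growth factor receptor Pdgfra read 10.22 and 9.98. In the WT MEFs with DOX, by contrast, Col1a1 read 8.49 and Pdgfra 5.69. Thy1, a surface glycoprotein of fibroblasts that is lost early in reprogramming, read 11.84 in WT MEFs and 9.96 in Nanog KO cells, a difference of -1.89. In bulk RNA such as this, fewer cells of a type and less RNA per cell cannot be told apart.

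The contractile gene programme was the list with the lowest median. Of 20 smooth muscle contractile genes listed, 19 were measured. All 19 exceeded the floor in WT MEFs and 13 did in Nanog KO cells, so some counted only through their WT MEF value. Of the 19, 0 were higher, 18 were lower and 1 was within 2-fold. The median difference was -2.43 against -0.07 over all genes above the floor. Cnn1, the actin-binding protein calponin, read 12.07 in WT MEFs and 6.20 in Nanog KO cells, at least 28.3-fold lower with the Nanog KO side set to the floor. Myl9, the regulatory light chain of myosin, read 12.61 and 7.28, a fold of 40.3. Tagln, an actin-bundling protein of smooth muscle, read 12.05 and 7.09, at least 27.9-fold lower. These genes also read low in WT MEFs with DOX (5.69 for Cnn1, 7.36 for Myl9 and 6.88 for Tagln). In the library labelled Utx KO with DOX they read 11.75, 12.19 and 11.87, near the uninduced WT MEFs. The low reading was thus not shared by both arrays labelled with DOX. Acta2, smooth muscle actin, read 12.97 and 9.96, and Actn1, which crosslinks actin at focal adhesions, read 12.31 and 8.84. Smtn, a protein of stress fibres, was the member within 2-fold, at 9.52 and 8.62. The WT ESC array also carried these genes (Acta2 at 12.41), and the Utx KO ESC array carried less (9.91).

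Srf, the transcription factor that drives contractile and immediate early genes through the CArG box, read 9.75 in WT MEFs and 7.99 in Nanog KO cells, and 8.77 to 9.31 on the other 5 arrays. The CArG box, searched by name on both strands in the 250 bases before each start in RefSeq (GRCm38.p6), was present in 439 of 27025 genes (1.62%). It was present in 4 of the 16 contractile genes that had a promoter there , namely Cnn2, Myl9, Srf and Vcl. Of 20 immediate early and ERK target genes with a promoter, 2 held one, Egr2 and Dusp5. Vcl, vinculin of focal adhesions, read 12.11 and 9.37, and Egr2, a zinc finger factor induced by growth factors, read 9.09 and 5.28. The stretches below are shown because members of both lists with lower values hold this box, which is in capitals. A match is a description of the sequence and not a measured binding site.
Myl9 (chr2:156775214-156775463, plus strand): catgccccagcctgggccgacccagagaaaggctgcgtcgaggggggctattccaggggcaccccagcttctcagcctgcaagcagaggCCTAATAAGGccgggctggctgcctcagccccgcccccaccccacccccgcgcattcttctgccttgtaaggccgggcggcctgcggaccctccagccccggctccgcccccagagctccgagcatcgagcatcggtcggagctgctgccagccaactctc
Srf (chr17:46556163-46556412, minus strand): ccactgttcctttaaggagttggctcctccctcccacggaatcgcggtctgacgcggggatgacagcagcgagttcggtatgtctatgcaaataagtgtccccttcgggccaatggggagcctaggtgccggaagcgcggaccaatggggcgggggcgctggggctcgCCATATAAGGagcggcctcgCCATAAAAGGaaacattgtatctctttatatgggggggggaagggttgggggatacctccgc
Vcl (chr14:20929148-20929397, plus strand): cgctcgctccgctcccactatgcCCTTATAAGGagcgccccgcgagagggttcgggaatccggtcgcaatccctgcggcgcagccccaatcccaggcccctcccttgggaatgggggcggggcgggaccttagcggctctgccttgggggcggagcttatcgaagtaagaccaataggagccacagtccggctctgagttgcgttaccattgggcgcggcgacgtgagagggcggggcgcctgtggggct
Egr2 (chr10:67537316-67537565, plus strand): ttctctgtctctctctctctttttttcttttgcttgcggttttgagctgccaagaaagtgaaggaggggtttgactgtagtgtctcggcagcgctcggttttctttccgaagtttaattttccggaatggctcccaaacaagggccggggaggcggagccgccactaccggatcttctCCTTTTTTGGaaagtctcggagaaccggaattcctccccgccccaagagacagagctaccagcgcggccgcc

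Immediate early genes and feedback genes of the ERK pathway were lower as well. This list was put together after its values had been seen and carries no independent weight. Of 31 measured, 30 exceeded the floor, 0 were higher and 23 lower, with a median of -2.01 (-1.26 without the alignment). All 30 exceeded the floor in WT MEFs and 12 did in Nanog KO cells, so some counted only through their WT MEF value. Egr1, a zinc finger factor induced within minutes of growth factor signals, read 10.30 in WT MEFs and 5.76 in Nanog KO cells, against 7.72 to 10.03 on the other 5 arrays. Dusp6, the phosphatase that switches off ERK, read 9.40 and 5.04, against 8.50 to 9.30 elsewhere. Etv5, an ETS factor downstream of FGF, read 8.84 in WT MEFs and lay under the floor in Nanog KO cells, at least 3.02-fold lower, and it read 8.52 to 11.59 on the other 5 arrays. On these 3 genes the Nanog KO array read under all the others, fibroblasts and ESCs alike. Fosl1, an AP-1 subunit, read 9.65 and 5.52, and the feedback inhibitor Spry4 read 8.04 and 5.51. In all, 11 of the 31 lay 2-fold or more under the lowest of the other 6 arrays, where 1.42% of 11161 genes did. With values under the floor set to it, 5 did, against 0.618% of genes. Other AP-1 and cell cycle members were close: Jun differed by -0.30, Junb by 0.06 and Ccnd1, cyclin D1, by 0.21. The labels give 2i medium, which holds an inhibitor of the kinase above ERK, for all 7 samples. The part of the medium in these values was not tested.

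**Figure D2:**
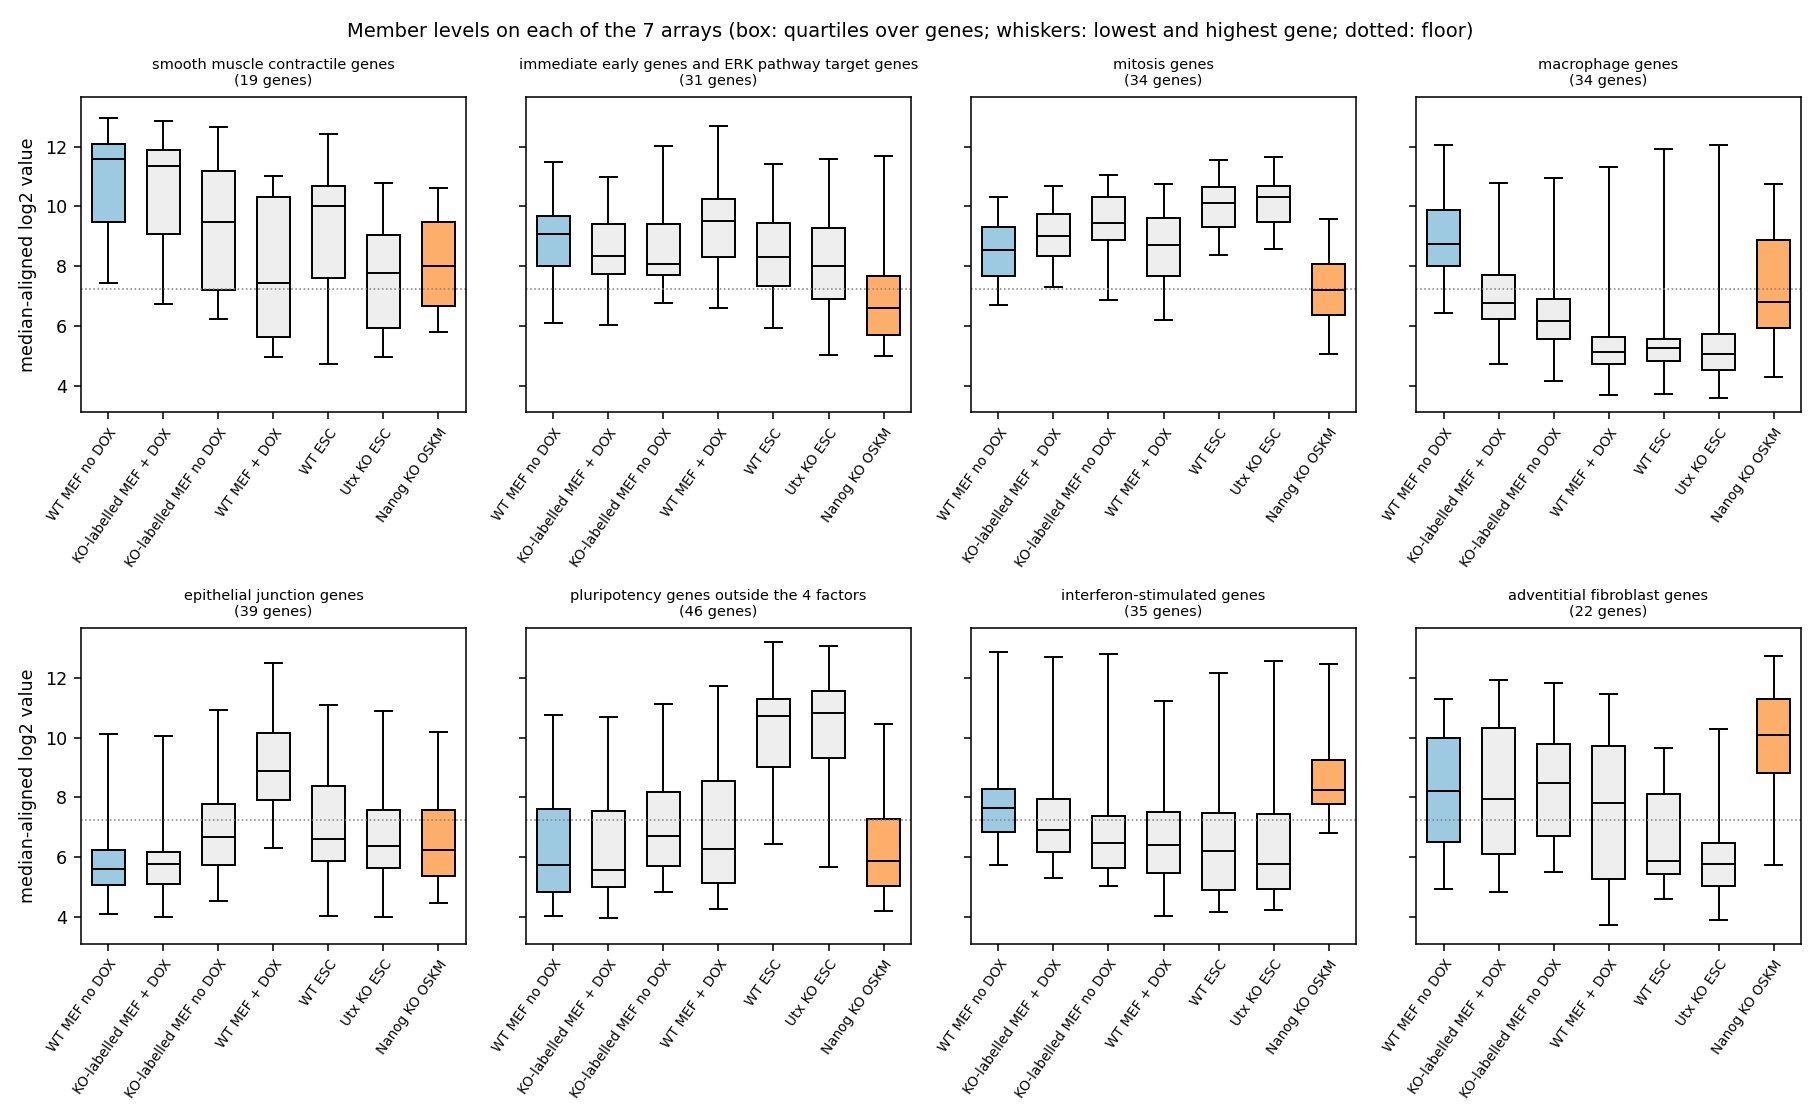
Levels of member genes of 8 lists (y axis, median-aligned log2 value) on each of the 7 arrays (x axis): boxes show quartiles over genes with the median as a line, whiskers reach the lowest and highest gene, and the dotted line is the floor. The Nanog KO array (orange) had the lowest median of the 7 for immediate early and ERK target genes (6.59) and mitosis genes (7.19) and the highest for interferon-stimulated (8.24) and adventitial fibroblast genes (10.10).

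FGF pathway genes showed the same feedback members and 1 large ligand difference. Of 17 members above the floor, 2 were higher and 12 lower, and the median over 25 measured was -0.49, or 0.25 without the alignment. Of the 17, 15 exceeded the floor in WT MEFs and 8 in Nanog KO cells, so some counted through 1 sample only. Fgf7, a fibroblast ligand that acts on epithelium, read 11.34 in WT MEFs, 5.62 in Nanog KO cells and 4.72 in WT MEFs with DOX, at least 17.0-fold lower in Nanog KO cells than in uninduced WT MEFs. The ligands Fgf9 and Fgf16 went the other way: Fgf9 read 5.90 and 8.43, and Fgf16 read 5.55 and 7.47. The receptors Fgfr1 (10.78 and 10.32) and Fgfr2 (8.58 and 8.55) were within 2-fold. Of the inhibitors that the pathway's own activity induces, Spred1 and Spred2 differed by -2.04 and -1.86, and Spry1 was at least 3.53-fold lower.

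After the alignment, mitosis genes read lower on the Nanog KO array than on all of the others. Of 34 measured, 28 exceeded the floor in this comparison, 0 were higher and 20 lower, with a median of -1.36 (-0.62 without the alignment). All 28 exceeded the floor in WT MEFs and 16 did in Nanog KO cells, so some counted only through their WT MEF value. In the aligned values each of the 34 read lowest of the 7 arrays on the Nanog KO array, where 21.8% of genes did. Of the 34, 22 lay 2-fold or more under the lowest of the other 6 (14 with values under the floor set to it). Plk1, the kinase that drives entry into mitosis, read 9.73 in WT MEFs and 7.70 in Nanog KO cells, against 9.75 to 11.11 elsewhere. Cenpe, a kinetochore motor, read 7.73 and 5.58, and Foxm1, the factor that activates G2 and M phase genes, read 8.02 and 6.01. Ccna2, cyclin A2, read 10.31 and 8.50. The spindle checkpoint gene Mad2l1 was level (9.60 and 9.57), and Aurkb, a kinase of the chromosomal passenger complex, differed by -0.32. Without the alignment, both read higher in Nanog KO cells than in WT MEFs. DNA replication genes moved less: of 28 above the floor, 0 were higher, 3 lower (Uhrf1, Ccne2 and Mcm5) and 25 within 2-fold, with a median of -0.21 that became 0.53 without the alignment. The share lower was near the 11.0% of all genes above the floor. Of the 37 replication genes measured, 23 read lowest of the 7 arrays on the Nanog KO array after the alignment.

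The CCAAT box, searched as CCAAT on both strands in the same 250 bases, was present in 37.5% of 27025 genes and in 21 of 29 mitosis genes with a promoter (72.4%). Among contractile genes it was present in 68.8%, so a high share was not particular to mitosis genes. The promoters of Cdc20, the activator of the anaphase-promoting complex (8.98 and 7.45), and of Top2a, the topoisomerase that untangles chromosomes (9.23 and 8.12), show a pair of boxes close to the start and a row of boxes, in capitals.
Cdc20 (chr4:118437344-118437593, minus strand): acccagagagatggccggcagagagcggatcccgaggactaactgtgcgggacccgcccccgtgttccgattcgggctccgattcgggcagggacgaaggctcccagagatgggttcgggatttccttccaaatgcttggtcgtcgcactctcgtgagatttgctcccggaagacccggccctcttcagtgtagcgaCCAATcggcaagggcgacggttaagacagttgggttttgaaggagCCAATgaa
Top2a (chr11:99024190-99024439, minus strand): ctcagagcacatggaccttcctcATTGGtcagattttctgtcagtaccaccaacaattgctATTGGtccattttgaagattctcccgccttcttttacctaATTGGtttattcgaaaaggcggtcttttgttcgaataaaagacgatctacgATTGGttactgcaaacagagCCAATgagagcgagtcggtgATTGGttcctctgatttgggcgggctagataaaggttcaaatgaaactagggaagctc

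Secreted and matrix genes split by kind. Of 20 collagen genes above the floor, 1 was higher, 5 lower and 14 within 2-fold, with a median of -0.39 (0.35 without the alignment). Col1a2 (12.44 and 12.47) and Col3a1 (11.47 and 11.92) were level, while Col12a1, a fibril-associated collagen of tendon and dense tissue, read 12.47 and 10.67. Col14a1, another fibril-associated collagen, was higher (10.08 and 11.34). The basement membrane chains Col4a1 (9.02 and 7.90) and Col4a2 (9.03 and 7.77), with Col6a1 (11.19 and 10.16) and Col18a1 (7.83 and 6.74), were the other 4 lower members. Of 29 matricellular and elastic fibre genes, 1 was higher and 13 lower, with a median of -0.74 that became 0.01 without the alignment. Tnc, tenascin C of wounded and tensioned tissue, read 12.90 in WT MEFs, 7.59 in Nanog KO cells and 6.98 in WT MEFs with DOX. Tnmd, a marker of tendon cells, read 10.89 and 5.35, at least 12.5-fold lower. Sparc (13.39 and 13.14), Fn1 (13.29 and 12.67) and Thbs2 (12.33 and 12.42) were within 2-fold. The small proteoglycans went both ways: Fmod, fibromodulin, read 11.71 and 7.66, whereas Lum, lumican, read 9.82 and 12.17 and Dcn, decorin, 11.85 and 13.01. Lum read 4.23 in WT MEFs with DOX, so the Nanog KO cells and the DOX-treated WT cells lay on opposite sides of the uninduced WT MEFs.

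Targets of the mechanically regulated factors YAP and MRTF, a list also assembled after the values were seen, had 1 member higher and 8 lower of 16 above the floor. Ankrd1, a muscle and stretch response gene, read 10.66 and 5.39, Ccn2 (CTGF) read 13.01 and 9.35, and Ccn1 (CYR61) 12.30 and 8.96. On the 2 CCN genes the WT MEFs with DOX stayed at 11.19 and 11.92. Matrix proteases and inhibitors had 1 higher and 10 lower of 21, among them Adam19 (10.17 and 6.43) and the plasminogen activator Plau (10.35 and 7.29), while the gelatinase Mmp2 was level (12.23 and 12.34). Of 22 fibroblast surface genes, 3 were higher and 10 lower, with a median of -0.52 (0.22 without the alignment). Itga11, a collagen receptor, read 11.50 and 5.93, at least 19.1-fold lower, and Cav1, the coat protein of caveolae, 11.83 and 8.53.

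Genes of TGF-beta family signalling were mostly lower or level: of 27 above the floor, 2 were higher, 11 lower and 14 within 2-fold, with a median of -0.38 (0.36 without the alignment). Inhba, the activin A subunit, read 11.92 and 7.64, and the ligand Bmp4 read 10.53 and 8.40. Smad7, the inhibitor that this pathway induces, read 8.80 and 6.57. Bmp7, an epithelial ligand, was under the floor in WT MEFs and read 10.43 in Nanog KO cells, at least 9.09-fold higher, above the 6.27 to 8.63 of the other 5 arrays. Among Wnt pathway genes above the floor, 3 of 20 were higher and 6 lower, with a list median of -0.23 (0.52 without the alignment). The lower ones included the agonists Rspo2 (8.99 and 5.12) and Rspo3 (9.25 and 6.18). The higher ones were Wnt9a, Wnt2 and Axin2, with differences of 2.28, 1.51 and 1.19.

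**Figure D3:**
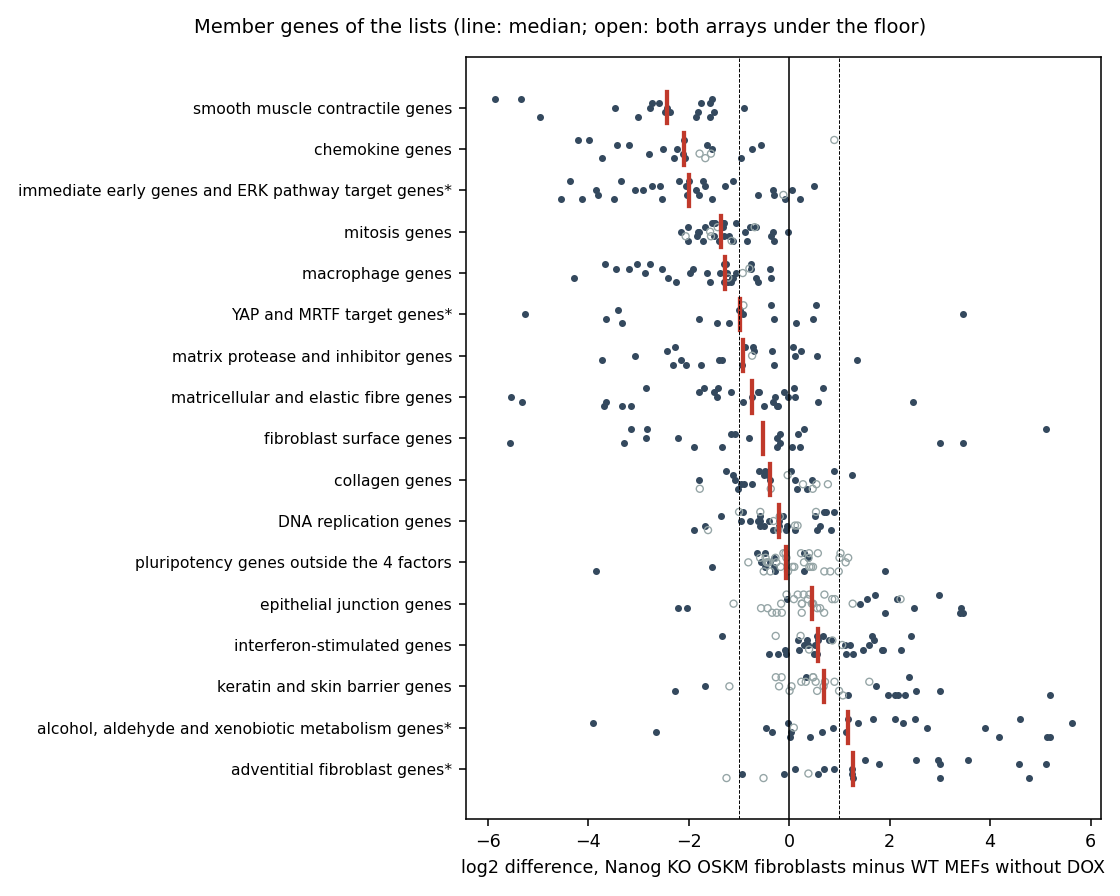
Log2 difference (x axis, Nanog KO OSKM fibroblasts minus WT MEFs without DOX) of each measured member of 17 lists (y axis), with the list median as a red line, dashed lines at 2-fold, and open points for members under the floor in both samples. Medians ran from -2.43 for smooth muscle contractile genes to 1.27 for adventitial fibroblast genes, and lists marked with an asterisk were chosen after their values were seen.

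The genes higher in Nanog KO cells included markers of adventitial fibroblasts, the Cd34 and Dpp4 expressing cells of vessel walls and connective tissue sheets. This list too was assembled after its values were seen. Of 19 above the floor, 13 were higher, 0 lower and 6 within 2-fold, with a median of 1.27 over 22 measured (2.01 without the alignment). All 19 exceeded the floor in Nanog KO cells and 13 did in WT MEFs, so some counted only through their Nanog KO value. Dpp4, a surface peptidase, read 4.94 in WT MEFs and 10.05 in Nanog KO cells, at least 6.95-fold higher. Clec3b, tetranectin, read 5.38 and 10.15, and Pi16, a peptidase inhibitor, 5.39 and 9.97. Cd34, a sialomucin of stem and stromal cells, read 9.74 and 12.75. Of the 19 above the floor on any array, 9 lay 2-fold or more above the highest of the other 6 arrays, where 1.83% of 11161 such genes did. With values under the floor set to it, 8 did, against 1.47% of genes. As the list was chosen with these values known, that excess carries no independent weight. Tek, the angiopoietin receptor usually found on endothelium, read 6.43 and 11.27, and it read 10.01 in WT MEFs with DOX. Of the 5 endothelial markers measured, Tek and Esam (6.07 and 7.37) were higher, Erg was lower (7.26 and 6.16), and Pecam1 (5.24 and 5.09) and Tie1 (5.41 and 5.27) were under the floor in both samples.

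Enzymes of alcohol, aldehyde and xenobiotic metabolism, again listed after the values were seen, had 14 of 24 higher and 2 lower, with a median of 1.18. Of these 24, 14 exceeded the floor in WT MEFs and 23 in Nanog KO cells, so some counted only through their Nanog KO value. Adh1, an alcohol dehydrogenase that also oxidises retinol, read 6.30 and 11.43, at least 18.1-fold higher, and at most 7.88 on the other 5 arrays. Fmo1, a flavin monooxygenase, read 6.69 and 11.28, and Akr1c14, a hydroxysteroid dehydrogenase, 4.47 and 10.11. Aldh3a1, an aldehyde dehydrogenase of corneal epithelium, read 4.84 and 10.04, and it was higher still in WT MEFs with DOX (11.57). Cbr2, a carbonyl reductase, was lower (10.38 and 6.47). Over all named genes, the 15 with the largest positive measured differences included Vsnl1, a neuronal calcium sensor (4.92 and 11.42, at least 18.0-fold higher), and the prostaglandin D synthase Ptgds (5.91 and 11.70, at least 21.9-fold higher). All 15 were under the floor in WT MEFs, so their order was not measured, and 11 of them lay 2-fold or more above the highest of the other 6 arrays. Of the 15 with the largest negative differences, 13 were under the floor in Nanog KO cells and 1, the transcript AI506816, lay 2-fold or more under the lowest of the other 6.

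**Figure D4:**
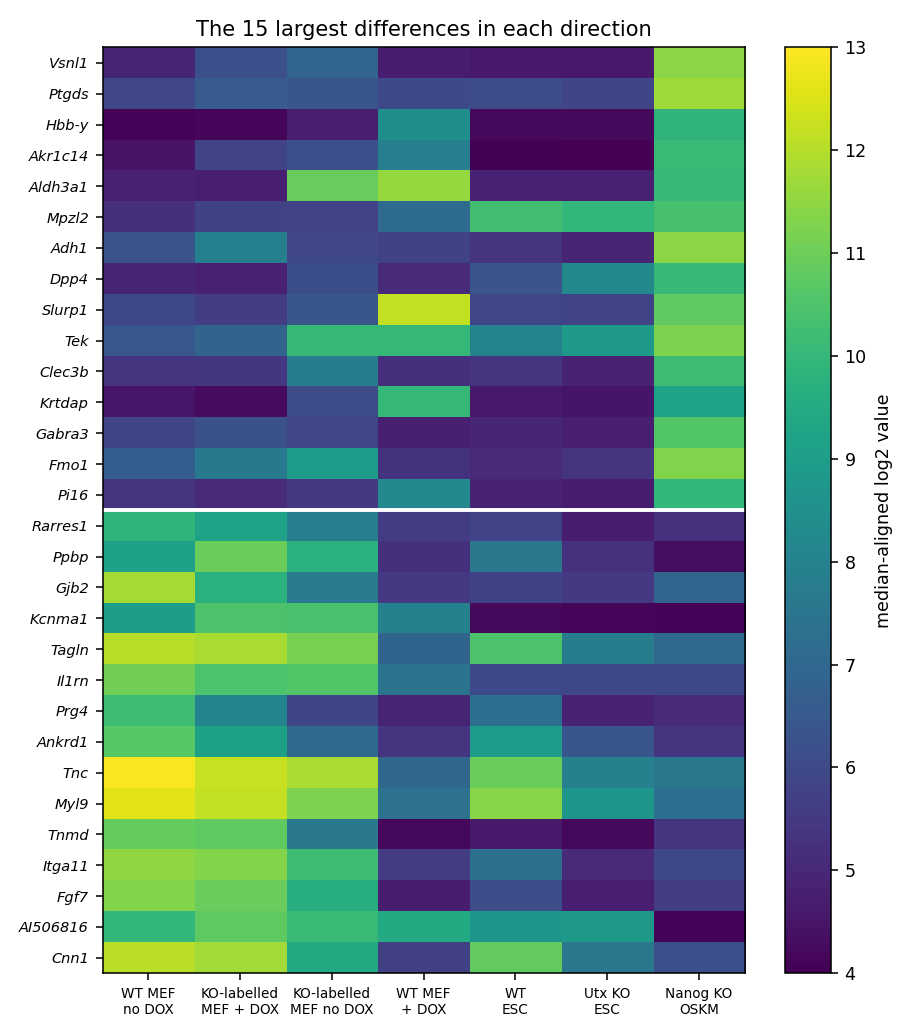
Median-aligned log2 value (colour) on each of the 7 arrays (columns) for the 15 genes with the largest positive and the 15 with the largest negative measured difference between Nanog KO OSKM fibroblasts and WT MEFs without DOX (rows, positive above the white line). Vsnl1, Ptgds and Adh1 were bright on the Nanog KO array alone, while Cnn1, Myl9 and Fgf7 were dark there and in WT MEFs with DOX.

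Some epithelial genes were higher in Nanog KO cells. Of 39 epithelial junction genes, 3 exceeded the floor in WT MEFs and 12 in Nanog KO cells. Of the 13 above it in either, 10 were higher and 2 lower. The median was 0.45 over all 39 measured. Lamb3, a laminin chain, read 5.94 and 9.40, its receptor subunit Itgb4 read 6.76 and 10.18, and the desmosomal plakophilin Pkp1 read 6.61 and 10.01. The 2 lower members were Pkp2, another plakophilin (7.75 and 5.54), and Cdh3, P-cadherin (9.33 and 7.29), while Jup, plakoglobin, was level (10.11 and 10.07). Cdh1, E-cadherin, read 5.79 in WT MEFs and 7.70 in Nanog KO cells, between those and the 11.74 of WT MEFs with DOX. Epcam, a surface marker of epithelium and ESCs, stayed under the floor (4.79 and 5.19), as did the epithelial splicing factor Esrp1 (4.92 and 4.57) and the epithelial transcription factor Grhl2 (5.02 and 4.87). Of 31 keratin and skin barrier genes, 5 exceeded the floor in WT MEFs and 12 in Nanog KO cells, and the median over all 31 was 0.68. Of the 13 above it in either, 10 were higher and 2 lower, which became 5 and 2 of 7 with the floor at the 60th percentile. The higher members included Krt8 (7.07 and 9.04), Krt14 (5.26 and 7.42) and Krt20 (4.99 and 7.99). Krt8 read 13.36 and Krt14 11.64 in WT MEFs with DOX. The 2 lower members, Sfn (8.59 and 6.33) and Sprr1a (9.52 and 7.85), were not lower against the library labelled Utx KO with DOX, where they differed by 0.028 and 0.63. Of regulators of the mesenchymal state, 2 of 18 were higher and 5 lower, with a median of -0.34 (0.40 without the alignment). Over all genes above the floor, 9.41% were higher and 11.0% lower. Snai1 (11.01 and 8.91) and Snai2 (10.13 and 8.47), repressors of Cdh1, were lower, while Zeb1 (10.15 and 9.81), Twist1 (8.79 and 9.25) and Prrx1 (11.85 and 11.39) were within 2-fold.

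Most genes of the pluripotency network stayed near fibroblast levels. Of 46 such genes outside the 4 factors, 14 exceeded the floor in either sample. Of these, Cdh1 was higher and 2 were lower, Etv5 and Klf2 (8.42 and 6.88). The median was -0.07, or 0.68 without the alignment. With no floor, 5 of the 46 were higher and 2 lower. Among 20 genes often gained early in reprogramming, 6 exceeded the floor in either sample, of which 5 were higher and 1 lower. Of these 6, 1 exceeded it in WT MEFs and 5 in Nanog KO cells, so most counted only through their Nanog KO value. The median over all 20 was 0.39 (1.13 without the alignment). Nanog, the targeted gene, read 5.43 in WT MEFs and 5.82 in Nanog KO cells, both under the floor, against 12.28 in WT ESCs, so these values do not test the knockout. Esrrb, an orphan receptor of naive ESCs, read 4.81 and 4.75 against 11.15 in WT ESCs, and Zfp42 (Rex1) read 4.78 and 4.75 against 9.27. L1td1, an RNA-binding protein that WT MEFs with DOX had at 8.99, read 5.44 and 6.61. Among the factors themselves, Pou5f1 (Oct4) read 8.19 and 11.17, against 12.14 in WT ESCs. Klf4 read 9.72 in Nanog KO cells, a difference of 0.72, and Myc read 10.99 and 10.07, both within 2-fold. Sox2 was under the floor in both (5.18 and 5.67) and in WT MEFs with DOX (5.30). Which parts of these transcripts the probes read, and so whether they see the lentiviral copies, was not found in the labels or files.

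Interferon-stimulated genes were higher in part. Of 30 above the floor, 12 were higher, 1 lower and 17 within 2-fold, with a median of 0.57 over 35 measured (1.31 without the alignment). All 30 exceeded the floor in Nanog KO cells and 21 did in WT MEFs, so some counted only through their Nanog KO value. Of the 30, 8 lay 2-fold or more above the highest of the other 6 arrays, where 1.83% of 11161 genes did. With values under the floor set to it, 7 did, against 1.47% of genes. Zbp1, a sensor of Z-form nucleic acids, read 6.86 and 9.28, and Oas2, an oligoadenylate synthase, 6.65 and 8.88. Irf7, the factor that amplifies the interferon response, read 6.66 and 8.51, and Trim30a, a ubiquitin ligase, 7.82 and 9.69. Ifit1 (7.74 and 7.94) and Ifit3 (7.91 and 8.09), which interferon induces strongly, were within 2-fold, and the membrane protein Ifitm1 was lower (10.76 and 9.42). The interferon-stimulated response element, searched as GAAA, any 2 bases and GAAA on both strands, was present in 3.46% of all promoters and in 8 of 27 of the list (29.6%). Of the 9 higher members with a promoter it was present in 2 (22.2%), Trim30a and Oas1a (6.12 and 7.25), shown here with the match in capitals. The Oas1a value in Nanog KO cells lay at the floor of 7.25, so the size of its difference was not measured.
Trim30a (chr7:104465194-104465443, minus strand): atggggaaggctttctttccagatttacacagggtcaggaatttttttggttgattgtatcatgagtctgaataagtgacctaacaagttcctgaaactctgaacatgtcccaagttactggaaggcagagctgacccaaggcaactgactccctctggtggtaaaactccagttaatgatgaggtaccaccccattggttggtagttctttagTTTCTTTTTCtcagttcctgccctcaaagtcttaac
Oas1a (chr5:120907526-120907775, minus strand): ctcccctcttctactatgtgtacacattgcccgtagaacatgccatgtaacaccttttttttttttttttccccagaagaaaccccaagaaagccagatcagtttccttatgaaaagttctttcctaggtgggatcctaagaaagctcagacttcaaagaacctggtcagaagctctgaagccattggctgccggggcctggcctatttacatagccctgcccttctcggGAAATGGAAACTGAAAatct

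Macrophage and chemokine genes were lower, relative to a WT MEF sample that carried them at high levels. Of 31 macrophage genes above the floor, 0 were higher and 25 lower, with a median of -1.28 (-0.54 without the alignment). All 31 exceeded the floor in WT MEFs and 13 did in Nanog KO cells, so some counted only through their WT MEF value. Against the library labelled Utx KO with DOX the median was 0.20. Of the 10 macrophage markers, 9 exceeded the floor in WT MEFs and 4 in Nanog KO cells, with median levels of 9.03 and 7.02. Lyz2, lysozyme of macrophages, read 12.06 and 10.75, and Adgre1, a surface receptor of macrophages, 9.91 and 9.30. On WT MEFs with DOX they read 4.87 and 4.18, under both samples compared. Mrc1, the mannose receptor (8.91 and 4.63), and Msr1, a scavenger receptor (7.98 and 4.79), differed by more than Adgre1. Of 17 chemokine genes above the floor, 0 were higher and 14 lower. All 17 exceeded the floor in WT MEFs and 7 did in Nanog KO cells, so some counted only through their WT MEF value. The chemokine median was -2.09, which was -0.49 against the library labelled Utx KO with DOX. Cxcl12, a stromal chemokine, read 10.59 and 6.38 and stayed at 11.26 in that library, and Ccl2, which attracts monocytes, read 8.82 in Nanog KO cells, a difference of -3.18, and 9.36 there. Macrophage markers differed along with the chemokine genes, and their part in that difference was not tested. Of 14 acute-phase and innate secreted genes above the floor, 3 were higher and 8 lower. The median over 18 measured was -0.50 (0.24 without the alignment). The receptor antagonist Il1rn (11.04 and 5.94) and Il6 (7.88 and 4.05) were lower, whereas complement C4b (5.39 and 8.67) and the lectin Reg3g (5.03 and 8.01) were higher.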

How the data were processed

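Expression arrays were made for 7 mouse samples, 1 for each. The submitters' processing notes name Affymetrix Expression Console and RMA, and the authors deposited the resulting values on a log2 scale; software versions and the genome build were not found in the labels or files. Nor was it stated there whether the Nanog KO array was normalized with the others. Per the labels the RNA was labelled with a kit for 3-prime arrays, but the probe identifiers belong to a whole-transcript array. The table had 21811 rows with 0 missing values, of which 14894 had a single gene symbol in the platform annotation, 925 had several and 5992 had none; the last groups were left out. For 754 of the 13562 genes several rows existed, and the one with the highest mean was used.

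Array medians were aligned to the WT MEF array and the log2 difference taken. With 1 array per condition no test was possible, which limits the precision of every value. The counting of genes was tested on simulated data. Where the lower side was under the floor, a fold is given as at least that with this side set to the floor. Named by rule were the 15 genes with the largest difference each way, up to 6 members of each list with the largest difference each way and up to 4 with the smallest, the 4 factors, Nanog and the cell type markers. Members and lists were chosen with earlier results of these data known. A further 6 lists, the genes whose promoters are printed and some members named as examples were chosen after values were seen. Promoters came from RefSeq (GRCm38.p6). Alternatives were other scalings, a reference library, floors, folds and rows. Calculations used Python 3.11.15 (pandas 2.3.3, numpy 2.4.6), and matplotlib 3.10.9 drew the plots.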

Additional observations from a re-analysis of the deposited data

How the results depend on the processing

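No paired analysis was possible because there is 1 array per condition, and for the same reason no replicate could be left out. In the deposited values, with medians not aligned, 3773 genes were higher and 399 lower. List medians there were 1.19 for epithelial junction, -0.54 for macrophage, -1.35 for chemokine, -0.62 for mitosis and -1.26 for immediate early and ERK target genes. Of 48 list medians, 26 changed sign there, which follows from adding the shift to every difference. Those of the 26 whose order-statistic interval over member genes lay wholly under 0 after alignment were 0.0062 for matricellular, 0.53 for DNA replication, 0.11 for cholesterol synthesis, 0.33 for ribosome biogenesis, 0.17 for unfolded protein response and 0.25 for FGF pathway genes. Such an interval describes the spread over genes and not over samples. At thresholds of 1.5-fold and 4-fold, 1799 and 246 genes were higher and 2162 and 305 lower. Over members above the floor alone, the epithelial junction median was 1.91, against 0.45 over all 39. Of these 13 members, 3 exceeded the floor in WT MEFs and 12 in Nanog KO cells. The subset was thus taken mainly through its Nanog KO values, and 1.91 does not test the difference. Quantile normalization, no floor, a floor at the 60th percentile (8.38) and the mean over a gene's rows kept both gene counts within 1.5 times. The higher floor left 4 epithelial junction genes and 7 interferon-stimulated genes higher, and 14 macrophage genes and 15 immediate early and ERK target genes lower, since fewer members exceed it.

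With the library labelled Utx KO with DOX as the reference, the macrophage median was 0.20, the chemokine median -0.49, the mitosis median -1.82 and the ribosome biogenesis median 0.029. Of 597 genes recomputed one by one, 88 changed sign against it, and of all 34 macrophage genes 21 did. The 15 of the 88 that counted as higher or lower against WT MEFs were Aldh1a3 (0.0048), Cd14 (0.14), Cd68 (0.22), Csf1r (0.24), Ctss (0.63), Fgf2 (0.12), Hoxa2 (-0.16), Hoxd11 (0.15), Lyz2 (0.21), Nes (0.029), Peg3 (-0.56), Sfn (0.028), Slco2a1 (0.63), Sprr1a (0.63) and Tyrobp (0.46). The cause was not tested. For genes near or under the floor of 7.25, signal over background limits what can be read.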

Other observations

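Imprinted genes went both ways: of 19 above the floor, 4 were higher and 4 lower in the Nanog KO cells. For this and the other lists here, the shares over all genes above the floor were 9.41% higher and 11.0% lower. Peg10, a retrotransposon-derived gene expressed from the paternal allele, read 10.36 in WT MEFs and 7.25 in Nanog KO cells, and 10.14 to 12.05 on the other 5 arrays. Mest, also paternally expressed, read 11.40 and 8.81, whereas the cyclin-dependent kinase inhibitor Cdkn1c read 8.80 and 10.54 and the zinc finger gene Plagl1 10.14 and 11.62. Igf2 was level (12.35 and 12.29). Among Hox genes, 3 of 14 above the floor were higher and 2 lower. Hoxc8 (8.66 and 10.16) and Hoxc5 (7.57 and 9.03) were among the former, while Hoxc6, of the same cluster, was within 2-fold (7.84 and 8.66). Among nuclear hormone receptors, a list chosen after its values were seen, 4 of 17 were higher and 3 lower. The oestrogen receptor gene Esr1 read 5.46 and 9.73, with at most 6.51 on the other 5 arrays, and the progesterone receptor gene Pgr 5.58 and 9.19. Genes of glutathione and NRF2 defence had 6 of 17 higher and 2 lower: Nqo1, a quinone reductase, read 6.58 and 8.60, while Slc7a11, the cystine transporter, read 9.33 and 6.73.

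Housekeeping lists were near level. All 22 ribosomal protein genes and 29 of 31 respiratory chain genes were within 2-fold after the alignment, with medians of 0.33 and 0.04 (1.07 and 0.78 without the alignment). Cell cycle inhibitors of the Ink4 locus differed in sign, Cdkn2a reading 7.01 and 8.57 and Cdkn2b 9.76 and 8.33.

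Over all named genes, members of the lists included, 46 on the Nanog KO array lay 4-fold or more above the highest of the other 6 arrays and 11 lay as far under the lowest, or 34 and 3 with values under the floor set to it. Ptgds lay above by at least 4.46, Vsnl1 by at least 4.17, Gabra3 by at least 3.30 and Npy1r by at least 2.78 on the log2 scale. Adam23 lay below by at least 1.80, AI506816 by at least 1.48, Etv5 by at least 1.27 and Dusp6 by at least 1.26, and Peg10 by 2.89. Xist, which coats the inactive X chromosome, read 11.06 and 12.03 in WT MEFs and Nanog KO cells, and the Y-linked Eif2s3y read 8.28 and 7.77, so both samples carried both signals. For the WT MEFs, labelled with the male genotype Utx +/Y, the high Xist value is at odds with the label, and its source was not tested. The Y-linked Uty read 7.34 and 7.42 and Kdm5d, under the floor on both arrays, 6.93 and 7.15, and the demethylase gene Kdm6b 8.78 and 8.70. A further 3009 rows without a gene symbol exceeded the floor, of which 182 were higher and 317 lower.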
